A study of Mus musculus with 2 samples.

Results

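The genes described here are 8 members of the tumor necrosis factor (TNF) ligand and receptor families measured in brain natural killer (NK) cells: the ligands Fasl, Tnfsf10 and Tnfsf14 and the receptors Tnfrsf1a, Tnfrsf1b, Tnfrsf4, Tnfrsf9 and Tnfrsf18. They were chosen by symbol, and all 8 were among the 31053 genes listed for both libraries. NK cells were sorted from the brains of 8-month-old, untreated female mice and sequenced one by one from the 5′ end of their transcripts. There was 1 library from wildtype C57BL/6 mice and 1 from 3XTg-AD mice, a model of Alzheimer's disease. How many mice went into a library, and on which background the 3XTg-AD line was kept, is not stated in the labels. With 1 library per genotype there is no replicate, so no difference was tested: every interval below is a 95% interval that covers counting error only, and a difference between libraries cannot be told apart from one between preparations or mouse colonies.

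TNF family ligands sit on the cell surface or are shed from it and bind receptors on neighbouring cells. Receptors with a death domain, such as Fas, the Tnfsf10 receptor and Tnfrsf1a, can recruit the adaptor Fadd and caspase 8 and so start apoptosis, which gives NK cells a way to kill that does not need perforin and granzymes. Receptors without one, such as Tnfrsf1b, Tnfrsf4, Tnfrsf9 and Tnfrsf18, recruit Traf adaptors, turn on NF-kB and act as costimulatory receptors on activated lymphocytes.

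Counts are unique molecular identifiers (UMIs), 1 for each captured transcript, and levels are given as counts per 1000000 UMIs (CPM) of all barcodes of a class. After filtering, 1649 wildtype and 1663 3XTg-AD barcodes remained, with 5559995 and 5468455 UMIs in the libraries as deposited and 1 barcode sequence found in both. A barcode was called ILC1-like, after the innate lymphocytes related to NK cells, when it held 3 or more summed UMIs of Itga1, Cxcr6, Inpp4b and Gzmc, and NK when it held fewer than 3 of these and 3 or more UMIs of 6 NK receptor and Eomes transcripts. This gave 1485 wildtype and 1525 3XTg-AD NK barcodes with medians of 2881 and 2796 UMIs, and 88 and 58 ILC1-like barcodes with medians of 5355 and 5536.5 UMIs. The ILC1-like class is a range cut from a sum: 22 wildtype and 17 3XTg-AD barcodes lay exactly at the cut of 3, and 34 and 36 NK barcodes lay 1 UMI below it. ILC1-like barcodes came almost entirely from expression cluster 7 (82 of 88 and 57 of 58), whereas most NK barcodes belonged to clusters 1, 4, 6 and 5 in the wildtype library and to clusters 0, 5, 2 and 4 in the 3XTg-AD library.

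The labelled cell type was checked against its markers. Ncr1, 1 of the 6 genes of the NK cut, was found in 95.4% of wildtype and 98.2% of 3XTg-AD NK barcodes. The T cell genes Cd4, Cd5, Cd6 and Cd8b1 had no UMI in either class of either library, while Cd3d and Cd3g were read at 1.94 to 12.2 CPM. All of these are in the T list, and barcodes with 3 or more UMIs of that list had been left out. In these T-marked barcodes, Cd4 and Cd8b1 had no UMI either, and Cd5 and Cd6 had at most 2 per library. The absence of these 4 genes therefore cannot tell NK barcodes from T-marked ones. T-marked barcodes also held Ncr1 in 66.7% and 94.3% and Klrb1c in 87.9% and 97.1% of cases in the wildtype and 3XTg-AD library. Gzma was in 39.4% and 42.9% of them, and Itga2 had no UMI. The mark thus does not show that they are T cells. In ILC1-like barcodes the 12 NK markers summed to 0.302 (0.293–0.311) of the NK level in the wildtype and 0.219 (0.210–0.229) in the 3XTg-AD library. S1pr5, a receptor of circulating NK cells, was the lowest of them at 0.037 (0.015–0.077) and 0.021 (0.0043–0.061). Gzma made up most of these sums, with 93001 of 129056 UMIs in wildtype NK barcodes and 92061 of 135787 in 3XTg-AD ones. Its own ratios were 0.214 (0.205–0.223) and 0.073 (0.066–0.080). Ncr1 stood at 0.474 and 0.571, Eomes at 0.858 and 0.807, and Klrd1 at 1.11 (0.989–1.25) and 0.889 (0.756–1.04). The 7 ILC1 genes that were not used for the cut summed to 5.16 (4.74–5.61) and 5.51 (4.99–6.06) times the NK level. Among them Xcl1 stood at 6.30 (5.71–6.95) and 5.10 (4.55–5.70), Il7r at 0.951 (0.609–1.43) and 4.47 (2.97–6.58), and Rora at 1.80 (0.881–3.37) and 1.43 (0.634–2.84). RNA set free from broken cells can add UMIs to any barcode. As a comparison, 8 wildtype and 31 3XTg-AD barcodes marked by microglial transcripts are given, with medians of 3206 and 3505 UMIs. These barcodes held the summed NK marker list at 0.357 (0.315–0.403) and 0.380 (0.360–0.402) of the NK level, so they are not free of NK transcripts. Their NK UMIs were unevenly spread: Gzma was detected in 50% and 41.9% of them, with medians of 2.5 and 0 UMIs per barcode. In NK barcodes the Gzma medians were 54 and 53. The origin of the NK UMIs in microglia-marked barcodes was not tested, so these barcodes do not measure RNA set free.

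The genes lie on 5 mouse chromosomes (build mm10, whole gene spans from GENCODE). Fasl is at chr1:161780689-161788495 on the minus strand, Tnfsf10 at chr3:27317028-27342427 on the plus strand and Tnfsf14 at chr17:57189492-57194177 on the minus strand. Tnfrsf1a is at chr6:125349362-125362484 on the plus strand, and the other 4 receptor genes are on chromosome 4. There Tnfrsf1b spans chr4:145213463-145246870 on the minus strand and Tnfrsf9 spans chr4:150914562-150946102 on the plus strand. Tnfrsf4 (chr4:156013843-156016612) and Tnfrsf18 (chr4:156026164-156028895) are neighbours on the plus strand with 9551 bases between them.

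The 250 bases before the annotated RefSeq starts (GRCm38.p6) are shown for Tnfsf14, Tnfrsf9 and Tnfsf10, chosen after their values were seen because their levels differed most between the groups of barcodes described below. Capitals mark matches, on either strand, to the AP-1 motif TGANTCA or the NFAT core TGGAAA, the sites of 2 factor families used after receptor triggering in lymphocytes. Tnfrsf9 has 2 annotated starts. The promoters are Tnfsf14 at chr17:57194182-57194431 (minus strand), Tnfrsf9 at chr4:150919905-150920154 and chr4:150927749-150927998 (plus strand) and Tnfsf10 at chr3:27316827-27317076 (plus strand).
Tnfsf14: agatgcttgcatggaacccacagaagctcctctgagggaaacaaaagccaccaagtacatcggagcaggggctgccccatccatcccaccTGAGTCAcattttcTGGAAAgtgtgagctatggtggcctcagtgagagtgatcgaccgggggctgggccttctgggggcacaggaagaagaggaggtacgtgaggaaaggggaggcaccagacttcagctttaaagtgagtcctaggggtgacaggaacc
Tnfrsf9, upstream start: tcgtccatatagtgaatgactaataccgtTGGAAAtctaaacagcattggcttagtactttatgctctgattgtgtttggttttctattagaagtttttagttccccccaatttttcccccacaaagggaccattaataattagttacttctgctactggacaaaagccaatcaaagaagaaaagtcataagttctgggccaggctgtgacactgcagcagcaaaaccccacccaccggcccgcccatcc
Tnfrsf9, downstream start: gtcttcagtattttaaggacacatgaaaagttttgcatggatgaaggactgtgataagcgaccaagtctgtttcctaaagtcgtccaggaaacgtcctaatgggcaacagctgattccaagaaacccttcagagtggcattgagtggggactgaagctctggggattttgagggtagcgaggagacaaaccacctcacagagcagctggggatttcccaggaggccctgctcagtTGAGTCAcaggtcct
Tnfsf10: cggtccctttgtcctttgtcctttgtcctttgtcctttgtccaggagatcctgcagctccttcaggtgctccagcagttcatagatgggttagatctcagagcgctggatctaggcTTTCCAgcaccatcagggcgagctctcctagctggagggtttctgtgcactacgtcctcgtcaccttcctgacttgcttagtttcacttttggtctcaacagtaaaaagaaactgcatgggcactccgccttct

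Counted back from the start, the Tnfsf14 promoter held an AP-1 match at -160 and an NFAT match at -146, and the Tnfrsf9 promoters held an NFAT match at -221 and an AP-1 match at -15. The Tnfsf10 promoter held an NFAT match at -134, and so did that of Tnfrsf4 at -220. Among 32851 RefSeq promoters of the same length, 6.75% held the AP-1 motif and 18.6% the NFAT core. The Nr4a site AAAGGTCA, present in 1.34% of promoters, and the T-box site TCACACC, present in 3.33%, had no match in any of the 8 genes' windows. A match describes these letters and does not show that a factor binds there.

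Of the death ligands, Fasl, the ligand of Fas, was the one read broadly in NK barcodes. Its level was 219 CPM (205–233, 1015 UMIs) in wildtype and 210 CPM (197–224, 990 UMIs) in 3XTg-AD NK barcodes. A UMI was found in 44.9% (42.4–47.5%) and 45.0% (42.5–47.5%) of them. In the microglia-marked barcodes it was found in 25% (3.19–65.1%) and 19.4% (7.45–37.5%), at 0.524 (0.108–1.53) and 0.401 (0.192–0.740) of the NK level, beside 0.357 and 0.380 for the summed NK list.

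Tnfsf10 encodes TRAIL, the ligand of the death receptor Tnfrsf10b in mice. Its NK level was 8.19 CPM (5.79–11.2, 38 UMIs) in the wildtype and 7.65 CPM (5.36–10.6, 36 UMIs) in the 3XTg-AD library. Barcodes with it made up 2.42% (1.70–3.34%) and 2.16% (1.49–3.03%) of NK barcodes. Over all NK barcodes these shares were not above those in the microglia-marked barcodes, where 1 of 8 (12.5%, 0.316–52.7%) and 1 of 31 (3.23%, 0.082–16.7%) held it. As the microglia-marked barcodes do not measure RNA set free, the comparison does not decide whether NK barcodes express Tnfsf10. That comparison rests on 1 positive barcode per library, and the NK UMIs were unevenly spread, as described below.

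Tnfsf14 encodes LIGHT, which binds Tnfrsf14 and Ltbr. It was present at 24.1 CPM (19.9–29.0, 112 UMIs) in wildtype and 28.3 CPM (23.7–33.5, 133 UMIs) in 3XTg-AD NK barcodes, and was found in 5.86% (4.72–7.18%) and 7.15% (5.91–8.56%) of them. Among microglia-marked barcodes it was found in 0 of 8 and in 1 of 31. At most 7 UMIs were read in a single wildtype NK barcode and 4 in a 3XTg-AD one.

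Tnfrsf1a, the death-domain TNF receptor made by most cell types, stood at 98.7 CPM (89.8–108, 458 UMIs) and 107 CPM (97.5–116, 502 UMIs) in wildtype and 3XTg-AD NK barcodes. Its share was 27.7% (25.5–30.1%) and 27.6% (25.4–29.9%) of them. Microglia express this gene themselves, and the microglia-marked barcodes held it at 2.71 (1.08–5.62) and 2.92 (2.04–4.09) times the NK level. Tnfrsf1b, the TNF receptor without a death domain, stood at 31.0 CPM (26.2–36.5, 144 UMIs) and 35.5 CPM (30.3–41.3, 167 UMIs). It was found in 9.49% (8.05–11.1%) of wildtype and 10.4% (8.94–12.1%) of 3XTg-AD NK barcodes, with at most 2 UMIs in any of them. Among microglia-marked barcodes 0 of 8 wildtype (0–36.9%) and 8 of 31 3XTg-AD ones (25.8%, 11.9–44.6%) held Tnfrsf1b. The 3XTg-AD microglia-marked level was 1.90 (0.807–3.83) times the NK level, so the NK share there was not above the microglia-marked one.

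The costimulatory receptors were uneven. Tnfrsf18 (GITR) was found in 35.7% (33.3–38.2%) of wildtype and 31.4% (29.1–33.8%) of 3XTg-AD NK barcodes, at 153 CPM (142–165, 710 UMIs) and 128 CPM (118–138, 600 UMIs). Tnfrsf9 (CD137) was found in 12.3% (10.7–14.1%) and 14.1% (12.4–15.9%), at 65.9 CPM (58.8–73.7, 306 UMIs) and 89.7 CPM (81.3–98.7, 422 UMIs). Its UMIs were concentrated: 27 wildtype and 42 3XTg-AD NK barcodes with 3 or more UMIs held 38.2% and 48.6% of all Tnfrsf9 UMIs in the class, and single barcodes held up to 12 and 13. No microglia-marked barcode held Tnfrsf9 in either library, and 2 of 8 and 5 of 31 held Tnfrsf18. Tnfrsf4 (OX40), the neighbour gene of Tnfrsf18, was close to absent, with 7 UMIs in the wildtype and 5 in the 3XTg-AD NK barcodes.

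**Figure D1:**
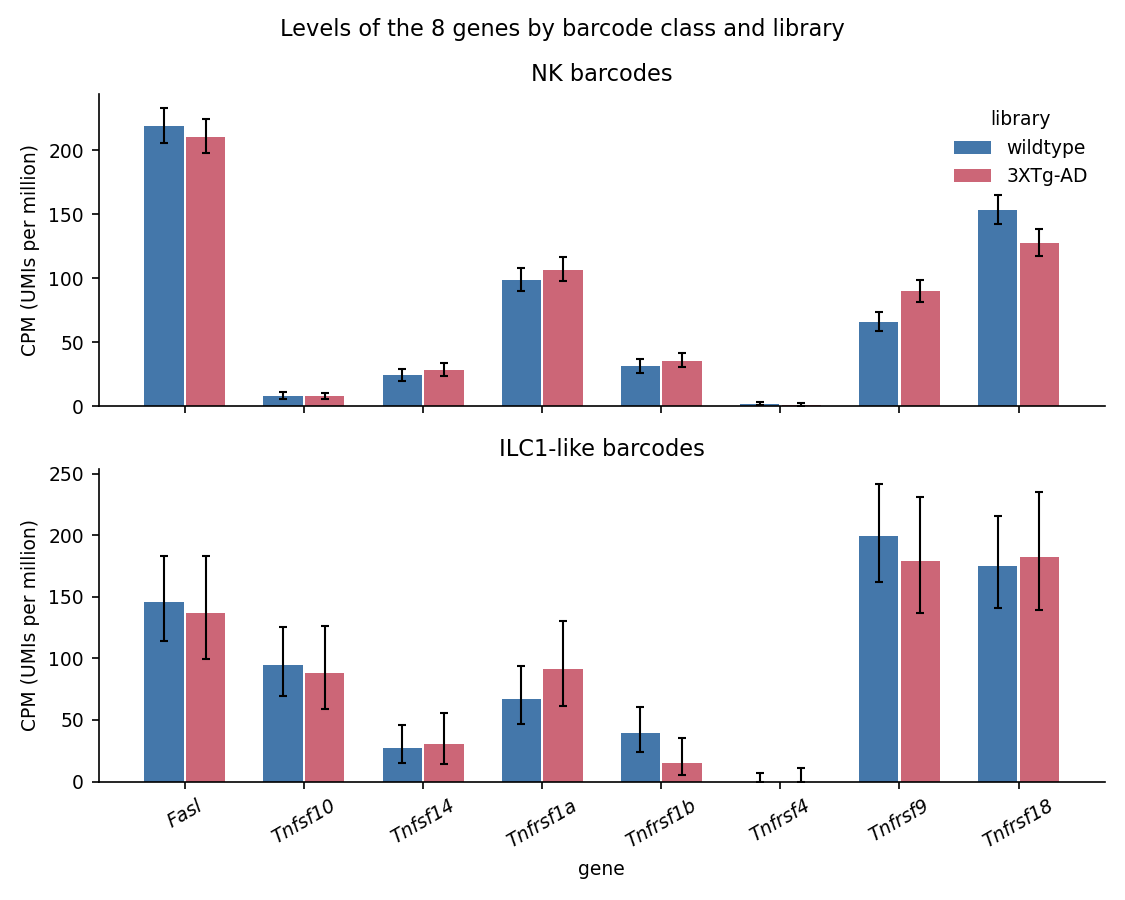
Level of each gene in CPM, in NK barcodes (upper) and ILC1-like barcodes (lower), with 1 bar for each library and exact Poisson 95% intervals that cover counting error only. Fasl is at 219 and 210 CPM in NK barcodes, and Tnfsf10 is at 94.6 and 88.1 CPM in ILC1-like barcodes against 8.19 and 7.65 CPM in NK barcodes.

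Over all NK barcodes, the 3XTg-AD over wildtype ratios of the genes assessed lay between 0.833 for Tnfrsf18 and 1.36 for Tnfrsf9. A gene was assessed when it held 20 or more UMIs over both groups and was called higher or lower at 1.5-fold or more. Tnfrsf4 held too few UMIs, and none of the other 7 genes passed 1.5-fold in either direction, against 12.1% of the 9845 genes assessed. With 7 genes, a count of 0 does not set them apart from that share. Some ratios within single clusters were larger, as given below. The median log2 ratio of the 7 genes was 0.11 and that of all genes 0.05.

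The intervals of 2 receptors did not hold 1, and these lay on opposite sides of it. Tnfrsf9 was 1.36 times as high in the 3XTg-AD NK barcodes (1.17–1.58), and Tnfrsf18 was 0.833 times as high (0.746–0.930). The ratio was 0.962 (0.880–1.05) for Fasl, 0.934 (0.576–1.51) for Tnfsf10, 1.17 (0.904–1.52) for Tnfsf14, 1.08 (0.951–1.23) for Tnfrsf1a and 1.14 (0.910–1.44) for Tnfrsf1b. Each of these 5 intervals holds 1, which does not show that the levels are alike.

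Part of the Tnfrsf9 UMIs came from cluster 8, led by Nr4a1, Ccl4 and Nfkbid, where its level was 250 CPM (157–378, 22 UMIs in 25 wildtype barcodes) and 334 CPM (273–404, 106 UMIs in 91 3XTg-AD barcodes). Without the NK barcodes of clusters 7 and 8 the Tnfrsf9 ratio was 1.17 (0.978–1.39), and that of Tnfrsf18 was 0.857 (0.761–0.966). In cluster 0 the order was the other way, with Tnfrsf9 at 179 CPM (132–237) in 95 wildtype barcodes and 81.4 CPM (66.4–98.9) in 421 3XTg-AD barcodes. The barcodes were clustered on their own expression, so levels by cluster are descriptions. Of 12 early response, cytokine and heat shock genes taken as context, 11 were assessed in NK barcodes, and 6 were called higher and 0 lower in the 3XTg-AD library, where 6.55% and 5.56% of all genes were. Fos was 3.34 (2.47–4.57), Hspa1b 4.50 (3.40–6.06) and Nr4a1 1.80 (1.45–2.23) times as high, whereas Junb at 1.30 (1.22–1.38), Egr1 at 1.17 (0.949–1.43), Ifng at 0.818 (0.663–1.01), Ccl3 at 1.42 (1.30–1.55) and Ccl4 at 1.43 (1.37–1.49) were not called. Their part in the Tnfrsf9 ratio was not tested, and the values without Nr4a1 UMIs are given below.

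Among NK barcodes of cluster 5, led by Cd27, Tnfsf14 was 2.47 (1.38–4.61) times as high in the 3XTg-AD library, with 44 UMIs against 17, and Tnfrsf9 was 1.57 (0.959–2.60) times as high. In cluster 4 the ratio was 0.708 (0.264–1.73) for Tnfsf14, 0.752 (0.298–1.76) for Tnfrsf9 and 1.73 (0.770–3.96) for Tnfrsf1b, on 8 to 18 UMIs in each library. Tnfrsf18 was 1.32 (0.960–1.81) times as high there, on 78 3XTg-AD and 89 wildtype UMIs, so it too lay on the other side of 1 from its value over all NK barcodes. These comparisons within clusters were chosen after seeing the data.

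Of the wider family, fixed as lists, 5 of 14 other TNF ligands and 10 of 19 other receptors were assessed in NK barcodes. Their counts stand beside 6.55% of all genes called higher and 5.56% called lower. Tnf was the 1 ligand called higher in the 3XTg-AD library (5.31 against 3.45 CPM, ratio 1.54, 0.791–3.09) and Tnfsf8 the 1 called lower (2.98 against 5.82 CPM, ratio 0.511, 0.248–1.01). Ltb, which with Lta forms the ligand of Ltbr, stood at 83.7 CPM in 3XTg-AD and 107 CPM in wildtype NK barcodes (ratio 0.780, 0.682–0.892). Of the receptors, 3 were called higher and 3 lower, all from 4 to 35 UMIs per library among those named. Tnfrsf23 (ratio 3.95, 1.27–16.2) and Tnfrsf22 (1.86, 0.785–4.74) were higher, and Tnfrsf25 (0.247, 0.060–0.764) and Tnfrsf13c (0.338, 0.160–0.667) lower. Tnfrsf23 and Tnfrsf25 held 16 UMIs in the library where they were higher and 4 in the other, just reaching the minimum of 20. Tnfrsf22 held 17 and 9. The receptor counts are thus partly set by that minimum. None of the 20 adaptor and death signalling genes was called higher and 1 was called lower.

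In ILC1-like barcodes the ratios between libraries rest on fewer UMIs. Of 7 genes assessed, 1 passed 1.5-fold, against 22.3% of 4761 genes, which does not set the 7 apart. This was Tnfrsf1b, at 15.2 CPM (4.93–35.5, 5 UMIs) in 3XTg-AD and 39.4 CPM (24.1–60.8, 20 UMIs) in wildtype barcodes, a ratio of 0.386 whose interval (0.113–1.06) holds 1. It was not called with classes taken from clusters, which also count cluster 8 as ILC1. With a minimum of 100 UMIs, or with a cut of 5 UMIs (14 wildtype and 3 3XTg-AD Tnfrsf1b UMIs), it was not assessed. The other ratios lay between 0.901 (0.642–1.25) for Tnfrsf9 and 1.36 (0.805–2.29) for Tnfrsf1a.

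**Figure D2:**
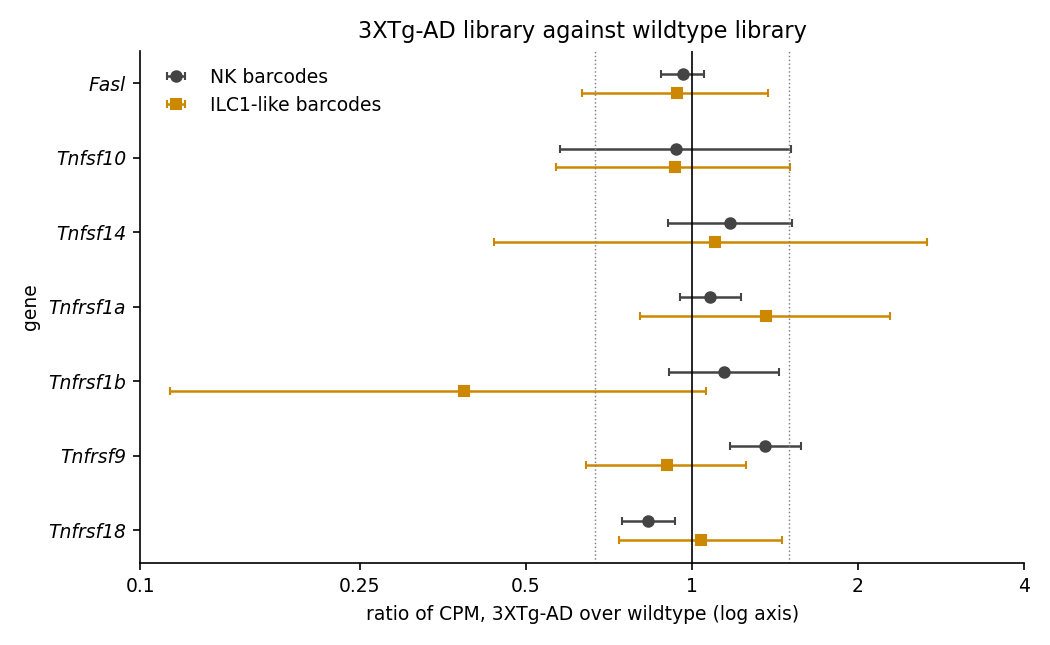
Ratio of CPM in the 3XTg-AD over the wildtype library on a log axis, for NK (circles) and ILC1-like barcodes (squares), with exact conditional 95% intervals that cover counting error only. Dotted lines mark 1.5-fold. All NK ratios lie inside the dotted lines, with Tnfrsf9 at 1.36 and Tnfrsf18 at 0.833.

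The clearest difference among classes was Tnfsf10, which was 11.5 times as high in ILC1-like as in NK barcodes of each library. In the wildtype library it stood at 94.6 CPM (69.7–125, 48 UMIs) in ILC1-like barcodes, a ratio of 11.5 (7.39–18.2). The 3XTg-AD level was 88.1 CPM (59.0–127, 29 UMIs), a ratio of 11.5 (6.81–19.3). It was found in 37.5% (27.4–48.5%) and 36.2% (24.0–49.9%) of ILC1-like barcodes. The share in 3XTg-AD microglia-marked barcodes was 3.23% (0.082–16.7%), but these were shallower. Their Tnfsf10 level was 16.9 CPM (2.04–60.9, 2 UMIs), an interval that just overlaps the ILC1-like one. The interval of the 8 wildtype microglia-marked barcodes is too wide to compare.

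The ILC1-like barcodes were deeper, so shares were also taken after thinning each barcode to 1400 UMIs. Shallower barcodes had to be dropped for this, 111 and 79 of the NK class in wildtype and 3XTg-AD and 3 of the wildtype ILC1-like class. Tnfsf10 was then found in 15.3% (8.40–24.7%) of wildtype and 12.1% (4.99–23.3%) of 3XTg-AD ILC1-like barcodes, against 1.38% (0.835–2.15%) and 1.04% (0.582–1.71%) of NK barcodes. None of 28 thinned 3XTg-AD microglia-marked barcodes held Tnfsf10 (0–12.3%), an interval that overlaps that of the ILC1-like share. T-marked barcodes, which were left out of both classes, held Tnfsf10 at 41.3 CPM (15.1–89.8, 6 UMIs) and 53.6 CPM (24.5–102, 9 UMIs). They also held Cxcr6 of the ILC1 cut, at 254 and 298 CPM beside 227 and 231 CPM in ILC1-like barcodes. Their Itga1, Inpp4b and Gzmc levels lay below the ILC1-like ones. In all 4 class and library combinations without T cell marks, Cd3e totalled 1 UMI. Cd3e is in the list behind the T mark, so its low count is partly set by that cut.

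Of the 7 genes assessed, 2 were called higher in ILC1-like barcodes of each library, against 13.3% of genes in the wildtype and 13.8% in the 3XTg-AD library. Tnfrsf9 was the other one. It stood at 199 CPM (162–242, 101 UMIs) and 179 CPM (137–231, 59 UMIs) in ILC1-like barcodes, 3.02 (2.39–3.79) and 2.0 (1.5–2.63) times the NK level. After thinning it was found in 22.4% (14.0–32.7%) and 15.5% (7.35–27.4%) of ILC1-like barcodes, against 7.06% (5.76–8.54%) and 8.02% (6.67–9.54%) of NK barcodes.

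Called lower were 1 gene in the wildtype library, where 23.3% of genes were, and 2 in the 3XTg-AD library, where 29.5% were. Fasl stood at 146 CPM (114–183, 74 UMIs) and 137 CPM (99.8–183, 45 UMIs) in ILC1-like barcodes, 0.667 (0.519–0.845) and 0.650 (0.471–0.877) of the NK level. In the same barcodes the summed NK marker list stood at 0.302 and 0.219 of the NK level. That sum mainly follows Gzma, at 0.214 and 0.073, so it does not stand for the single markers. By point value Klrd1, Klrk1 and Eomes lay above Fasl in both libraries, and Klrb1c and Klre1 only in the 3XTg-AD one. Ncr1, Gzma, Prf1, S1pr5, Itga2, Klra8 and Klra4 lay below Fasl in both. Before thinning, Fasl was found in 54.5% and 43.1% of ILC1-like barcodes, and after it in 20% (12.1–30.1%) and 12.1% (4.99–23.3%), against 26.3% (24.0–28.8%) and 26.6% (24.3–28.9%) of NK barcodes.

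The Fasl ratio sits close to the line of 1.5-fold. It ranged from 0.645 to 0.765 in the wildtype and from 0.433 to 0.790 in the 3XTg-AD library over the alternatives. It fell short of 1.5-fold in both libraries with doublets kept (0.689 and 0.669). In the wildtype library it also fell short with other cell types kept (0.687), interferon-high barcodes left out (0.692), the deepest barcodes left out (0.709) or a cut of 5 UMIs (0.742). In the 3XTg-AD library it did so with classes from clusters (0.729), which also count the NK barcodes of cluster 8 as ILC1. Ribosomal protein genes made up 28.3% and 31.1% of UMIs in ILC1-like barcodes and 17.7% and 15.8% in NK barcodes, which scales down the CPM of all other genes there. With ribosomal and mitochondrial genes left out, the Fasl ratio was 0.765 (0.595–0.969) in wildtype and 0.790 (0.572–1.07) in 3XTg-AD barcodes, and the median log2 ratio of all genes with them in was -0.14 and -0.27.

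The other members differed less or not in the same way in both libraries. Tnfrsf18 was 1.15 (0.909–1.43) and 1.43 (1.08–1.87) times as high in ILC1-like as in NK barcodes. Tnfrsf1a was 0.679 (0.464–0.962) and 0.855 (0.571–1.24) times as high, and Tnfsf14 1.14 (0.605–2.0) and 1.08 (0.504–2.04) times. Tnfrsf1b was 1.27 (0.753–2.03) times as high in the wildtype library and 0.428 (0.137–1.02) times in the 3XTg-AD library, on 20 and 5 UMIs. Tnfrsf4 had no UMI in ILC1-like barcodes of either library, where 0 of 88 and 0 of 58, taken as up to 3 counts, allow shares of up to 3.41% and 5.17% of barcodes with a UMI.

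**Figure D3:**
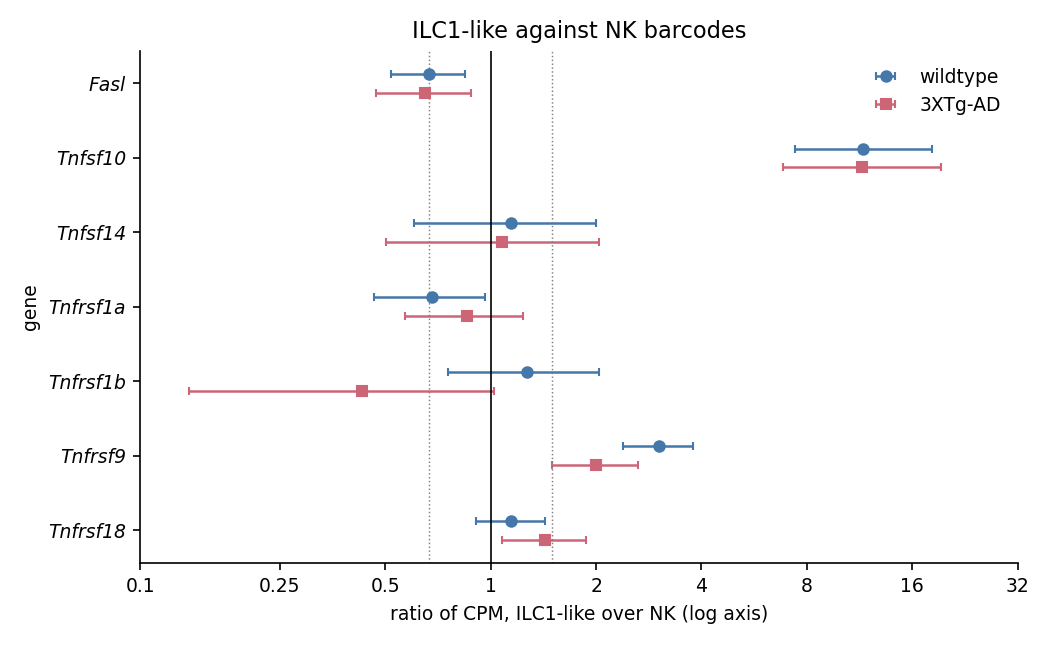
Ratio of CPM in ILC1-like over NK barcodes on a log axis, for the wildtype (circles) and 3XTg-AD library (squares), with exact conditional 95% intervals that cover counting error only. Dotted lines mark 1.5-fold. Tnfsf10 lies at 11.5 in both libraries and Tnfrsf9 at 3.02 and 2.0, and Fasl lies near the lower dotted line.

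Tnfsf10 also varied with the UMIs of the 4 genes of the cut, where 0 to 2 are NK barcodes and 3 or more the ILC1-like class. Its level in barcodes with 0, 1, 2, 3 to 4 and 5 or more UMIs of these genes was 6.01, 19.6, 47.4, 76.5 and 103 CPM in the wildtype library. The 3XTg-AD levels were 3.76, 14.7, 87.6, 85.5 and 89.8 CPM. The level in barcodes with none of the 4 genes, 25 and 16 UMIs over 1364 and 1423 barcodes, lay below every other one. The levels at 1 UMI rest on 7 and 4 Tnfsf10 UMIs. Their intervals (7.89–40.4 and 3.99–37.5) overlap those at 0 (3.89–8.88 and 2.15–6.11), whereas those at 2 (17.4–103 and 50.1–142) do not. Against barcodes with none of the 4 genes the ILC1-like ratio was 15.7 (9.51–26.6) in the wildtype and 23.4 (12.3–46.2) in the 3XTg-AD library, the latter over 1.5 times the value against all NK barcodes.

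Tnfrsf9 was 60.8 CPM (53.6–68.8) and 83.5 CPM (75.1–92.7) in barcodes with none of the 4 genes and 234 CPM (186–290) and 210 CPM (151–283) in those with 5 or more. Fasl was 223 CPM (209–238) and 222 CPM (208–236) with none and 160 CPM (121–207) and 130 CPM (84.7–190) with 5 or more. The NK barcodes of cluster 7, which also held most ILC1-like barcodes, had Tnfsf10 at 58.8 CPM (36.4–89.9) and 73.7 CPM (46.2–112). Tnfsf10 was itself among the 10 leading genes of that cluster.

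**Figure D4:**
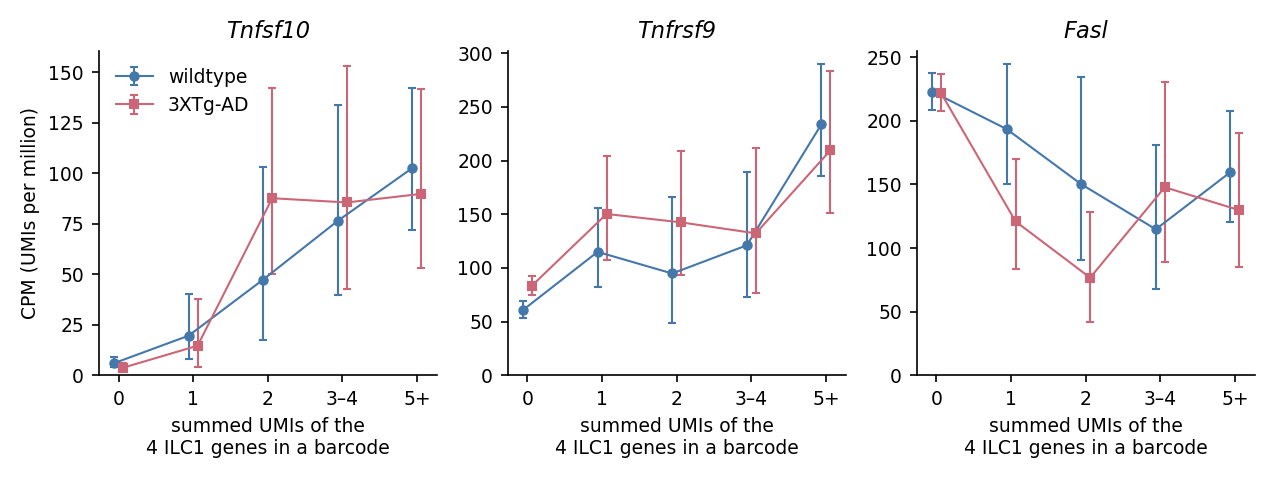
Level of Tnfsf10, Tnfrsf9 and Fasl in CPM against the summed UMIs of Itga1, Cxcr6, Inpp4b and Gzmc in a barcode, per library, with exact Poisson 95% intervals. Barcodes with 3 or more are the ILC1-like class. Tnfsf10 goes from 6.01 to 103 CPM in the wildtype and from 3.76 to 89.8 CPM in the 3XTg-AD library.

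Of the other TNF ligands assessed, 5 of 6 were called higher in ILC1-like barcodes of the wildtype and 3 of 5 in those of the 3XTg-AD library, where 13.3% and 13.8% of all genes were. Wildtype Tnf and Lta, with 16 NK UMIs each, and 3XTg-AD Tnfsf8, with 14, reached the minimum of 20 only through their ILC1-like UMIs. The counts are thus partly set by that minimum. Against NK barcodes with none of the 4 ILC1 genes, 3 of 4 and 3 of 5 were called higher, beside 1187 of 8974 and 1231 of 8928 genes. The same minimum applied there, so these counts share that limit. Ltb stood at 715 CPM against 107 CPM in wildtype NK barcodes (ratio 6.66, 5.80–7.64) and at 647 against 83.7 CPM in the 3XTg-AD library (7.73, 6.51–9.16). Tnfsf8, the CD30 ligand, was 11.9 (6.97–20.4) and 15.3 (6.90–34.3) times as high, and Tnf 3.43 (1.10–9.22) and 7.44 (3.49–15.1) times as high, on 6 and 13 UMIs. Lta, called in the wildtype library, stood at 2.86 (0.819–8.16) on 5 UMIs. In the 3XTg-AD library Tnfsf12 was called lower on 1 UMI.

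Of the 17 genes of the NF-kB response list, 1 was called higher and 6 lower in wildtype ILC1-like barcodes, and 0 higher and 10 lower in 3XTg-AD ones. Of all genes 23.3% and 29.5% were called lower in these comparisons. Tnfaip3, an inhibitor of NF-kB signalling, stood at 0.501 (0.212–1.01) and 0.226 (0.046–0.670) of the NK level. Of the 20 adaptor and death signalling genes, 1 was called higher and 4 lower in each library, no larger a share than among all genes. Traf2, the adaptor of Tnfrsf1b and Tnfrsf9, was the higher one named for the wildtype library (ratio 1.85, 1.22–2.74), and Sharpin, a part of the linear ubiquitin ligase, was lower in both (0.606, 0.415–0.858 and 0.502, 0.304–0.782).

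Nr4a1 is an early gene switched on by antigen and activating receptors in lymphocytes. It was found in 44 of 1485 wildtype NK barcodes (2.96%, 2.16–3.96%) and 71 of 1525 3XTg-AD ones (4.66%, 3.65–5.84%), and in 1 of 88 and 0 of 58 ILC1-like barcodes. After thinning 20 of 1374 (1.46%) and 40 of 1446 (2.77%) NK barcodes were positive. The comparison as planned used the thinned counts, and the one on full counts was added after seeing how few UMIs these held.

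Of the 7 genes assessed with full counts, Tnfsf14 had the highest ratio between Nr4a1-positive and Nr4a1-negative NK barcodes in each library. With full counts it stood at 192 CPM (30 UMIs in 44 barcodes) against 18.3 CPM (82 UMIs in 1441 barcodes) in the wildtype library, a ratio of 10.5 (6.69–16.2). The 3XTg-AD level was 89.7 CPM (22 UMIs in 71 barcodes) against 24.9 CPM (111 UMIs in 1454 barcodes), a ratio of 3.61 (2.17–5.73). Positive barcodes held it in 12 of 44 and 16 of 71 cases, or 27.3% (15–42.8%) and 22.5% (13.5–34.0%), against 5.20% (4.12–6.48%) and 6.40% (5.19–7.78%) of negative ones. In the wildtype library 5 positive barcodes with 3 or more Tnfsf14 UMIs held 21 of the 30 UMIs, and 1 of them held 7. The interval of the wildtype ratio is therefore too narrow. No 3XTg-AD positive barcode held more than 2. Positive barcodes were only slightly deeper, with medians of 3242.5 and 3236 UMIs against 2863 and 2775.5. With thinned counts the ratios were 11.3 (4.61–24.1) on 8 UMIs and 2.56 (0.673–6.92) on 4 UMIs in positive barcodes. With 2 or more Nr4a1 UMIs required in full counts they were 19.8 (11.6–32.5) on 20 UMIs in 14 wildtype and 3.94 (1.98–7.14) on 12 UMIs in 32 3XTg-AD barcodes.

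With full counts 3 of 7 genes assessed were called higher in Nr4a1-positive barcodes of each library, against 14.2% of genes in the wildtype and 11.9% in the 3XTg-AD library, and none was called lower, against 16.8% and 17.4% of genes. Tnfrsf9 stood at 128 CPM (20 UMIs) against 63.8 CPM in the wildtype and 171 CPM (42 UMIs) against 85.2 CPM in the 3XTg-AD library, a ratio of 2.01 (1.21–3.17) and 2.01 (1.43–2.77). With thinned counts positive barcodes held 1 and 4 Tnfrsf9 UMIs, and the ratios were 0.533 (0.013–3.02) and 0.857 (0.231–2.24), so its direction turns with this choice. Another thinning seed gave 1.98 (0.532–5.20) in the wildtype library. With 2 or more Nr4a1 UMIs required in full counts, the ratio was 1.83 (0.665–4.02) in 14 wildtype and 0.965 (0.459–1.79) in 32 3XTg-AD positive barcodes, so the 3XTg-AD value depends on how many Nr4a1 UMIs are asked for.

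Fasl was 1.58 (1.18–2.09) times as high in wildtype and 1.13 (0.853–1.48) times as high in 3XTg-AD positive barcodes, and Tnfrsf1b 1.25 (0.451–2.79) and 1.54 (0.800–2.71) times, so that Fasl was called in the first library and Tnfrsf1b in the second. Both calls turn on the counts used: in the wildtype library the thinned ratios were 1.38 (0.626–2.64) for Fasl and 1.91 (0.227–7.15) for Tnfrsf1b, and in the 3XTg-AD library Tnfrsf1b was at 1.27 (0.257–3.84). With 2 or more Nr4a1 UMIs in full counts Tnfrsf1b was 2.61 (0.701–6.83) in the wildtype and 0.975 (0.263–2.55) in the 3XTg-AD library. Tnfrsf18 was 1.40 (0.957–1.99) and 0.958 (0.640–1.38) times as high, and Tnfrsf1a 0.974 (0.541–1.62) and 0.954 (0.611–1.43) times. No Tnfsf10 UMI was found in positive barcodes, where the intervals of the ratio reach 2.93 and 1.96. With thinned counts 3 of 6 genes assessed were called higher and 1 lower in the wildtype library, where 25.3% and 8.98% of genes were. In the 3XTg-AD library 1 was called higher and 0 lower, where 18.8% and 15.4% of genes were.

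**Figure D5:**
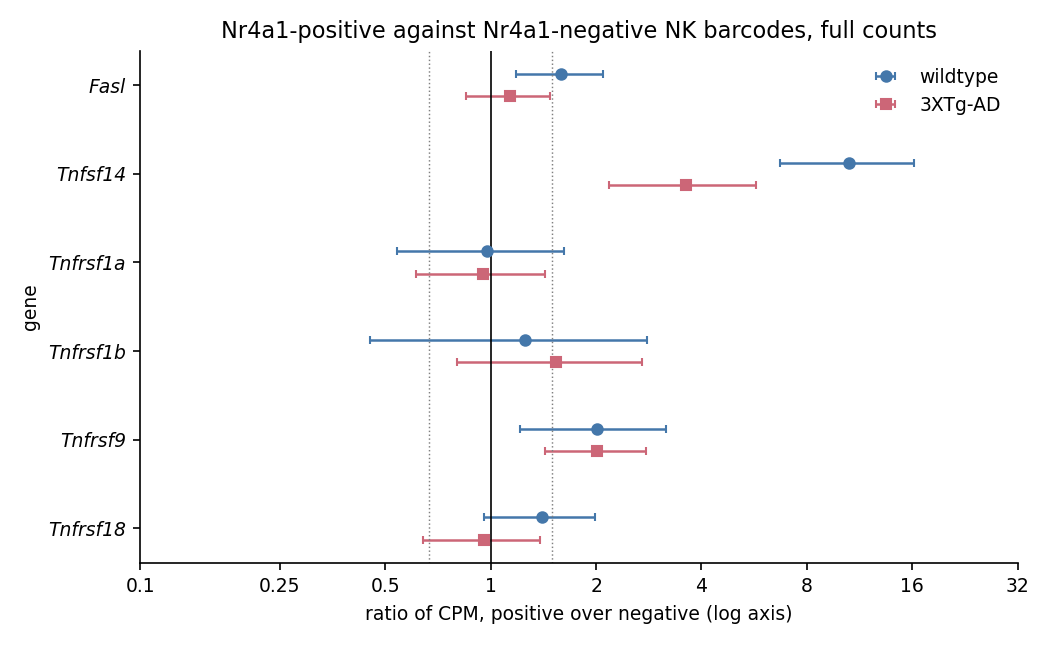
Ratio of CPM in Nr4a1-positive over Nr4a1-negative NK barcodes on a log axis, from full counts, for the wildtype (circles) and 3XTg-AD library (squares), with exact conditional 95% intervals that cover counting error only. Dotted lines mark 1.5-fold. Tnfsf14 lies at 10.5 and 3.61 and Tnfrsf9 at 2.01 in both libraries, whereas Tnfrsf1a lies near 1.

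NF-kB response genes were high in the same barcodes, with 11 of 17 called higher in each library from full counts, where 14.2% and 11.9% of all genes were. Nfkbid, an NF-kB regulator, was 13.1 (9.26–18.4) and 11.2 (8.41–14.8) times as high, and Nfkbia, the inhibitor that NF-kB itself induces, 5.39 (4.56–6.34) and 6.30 (5.51–7.17) times. Among other TNF ligands assessed, 1 of 4 was called higher in the wildtype library, and 2 were called higher and 1 lower of 4 in the 3XTg-AD library, all on 1 to 4 UMIs in positive barcodes. Fas, the receptor of Fasl, was found with 6 UMIs in 3XTg-AD positive barcodes (ratio 4.55, 1.52–11.4) and with none in wildtype ones. The interval of the wildtype ratio reaches 4.57 and so holds the 3XTg-AD value. With all NK barcodes holding a Nr4a1 UMI left out, the 3XTg-AD over wildtype ratio was 1.34 (1.14–1.56) for Tnfrsf9, against 1.36 with them, and 0.847 (0.756–0.948) for Tnfrsf18, against 0.833. That of Tnfsf14 went from 1.17 (0.904–1.52) to 1.36 (1.01–1.83), whose interval no longer holds 1.

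NK cells lose Cd27 and gain Klrg1 as they mature, and several of the 8 genes differed along this axis, in a comparison chosen after seeing the data. Fasl was 1.43 (1.11–1.85) times as high in 684 Klrg1-positive Cd27-negative as in 126 Cd27-positive Klrg1-negative wildtype NK barcodes, and 1.72 (1.27–2.40) times as high in 681 against 97 3XTg-AD ones. Tnfrsf9 was at 0.534 (0.376–0.773) and 0.570 (0.408–0.812) of the level in Cd27-positive barcodes, and Tnfrsf18 at 0.713 (0.552–0.930) and 0.582 (0.435–0.789).

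Tnfsf14 stood at 17.4 against 40.6 CPM in the wildtype (ratio 0.430, 0.239–0.807) and 9.55 against 93.4 CPM in the 3XTg-AD library (0.102, 0.056–0.183). Tnfrsf1b was at 0.512 (0.318–0.852) in the wildtype and 1.18 (0.614–2.56) in the 3XTg-AD library. Of 6 genes assessed, 0 were called higher and 3 lower in the wildtype library, where 14.4% and 11.8% of genes were, and 1 higher and 3 lower in the 3XTg-AD library, where 16.4% and 12.3% were. Without barcodes holding a UMI of the 4 ILC1 genes the Fasl ratios were 1.55 and 1.83 and the Tnfsf14 ratios 0.494 and 0.122.

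In the wildtype library 31 NK barcodes had 10 or more UMIs of 21 interferon-induced genes after thinning, against 1 in the 3XTg-AD library. In these Fasl was 1.92 (1.34–2.68) and Tnfrsf18 1.85 (1.18–2.77) times as high as in the other 1343 wildtype NK barcodes, and 4 of 7 genes were called higher, against 21.8% of genes. Tnfsf10 was found there with 3 UMIs (ratio 4.68, 0.917–14.9).

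Pairs of the 8 genes were counted together in NK barcodes. Of 28 pairs, 14 in the wildtype and 13 in the 3XTg-AD library had 5 or more barcodes expected to hold both genes after thinning, if detection of each were unrelated to the other. The observed number was 0.582 to 1.55 times the expected one in the wildtype and 0.558 to 1.32 times in the 3XTg-AD library. The 1 pair above 1.5 was Fasl with Tnfsf14 in the wildtype library (1.55, 0.946–2.39).

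For the 5 members found in 50 or more thinned NK barcodes of each library, genes were ranked by the lower of the 2 libraries' ratios of CPM in barcodes with the member over those without it. Barcodes with Tnfrsf9 held most of all more Xcl1, a chemokine for cross-presenting dendritic cells (4.37 in wildtype, 4.92 in 3XTg-AD), and Ccl4 (2.05 and 2.76). Those with Tnfrsf18 held more Ltb (1.62 and 1.65). Those with Fasl held more Pithd1 (1.64 and 1.94) and Nr4a1 (3.89 and 1.56), those with Tnfrsf1b more Nfkbia (1.37 and 1.59), and those with Tnfrsf1a more Surf4 (1.42 and 2.06). The Nr4a1 values rest on 32 and 35 UMIs in 6 wildtype and 10 3XTg-AD barcodes that held both genes. After thinning, Fasl was found in 30% (11.9–54.3%) of Nr4a1-positive and 26.3% of Nr4a1-negative wildtype NK barcodes. In the 3XTg-AD library these shares were 25% (12.7–41.2%) and 26.6%. The median over all genes ranked lay between 0.986 and 1.03, and these ratios, picked as the highest of 462 to 2403 genes, are descriptions.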

How the data were processed

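The authors deposited raw UMI counts per gene and barcode, not normalized, as a matrix per library. Cell Ranger 3.1.0, STAR and mm10 are named in the submitters' processing notes, and version 3.0.2 of the software stands in the matrices, per the file headers. Sequencing was paired-end with 75-base reads, per the labels' protocols. No source used here names the gene annotation behind the counts.

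Barcodes with under 300 genes (45 wildtype, 10 3XTg-AD), over 10% mitochondrial UMIs (2 and 0) or called doublets by Scrublet in their library (13 and 22) were left out. Other cell types were left out at 3 or more UMIs of T, B or microglial markers, or over 1% erythroid or neutrophil UMIs (45 and 67 barcodes), and 31 and 13 barcodes fitted neither class. Clusters came from Leiden clustering of both libraries in scanpy 1.11.5 (Python 3.11.15). For classes from clusters, a cluster took the class with the most markers among its 10 leading genes. Clusters 0, 1, 2, 4 and 5 counted as NK and clusters 7 and 8 as ILC1. Cluster 8 was placed there by Xcl1 alone and held 0 ILC1-like barcodes but 25 wildtype and 91 3XTg-AD NK barcodes. The NK barcodes of clusters 3 and 6 were in neither class. UMIs were summed per class and library and scaled to CPM. Levels have exact Poisson, shares Clopper-Pearson and ratios exact conditional binomial 95% intervals, all for counting error only and too narrow where a few barcodes hold many UMIs. A gene at 0 was given a floor of 3 counts. No test across samples was possible with 1 library per group. The ratio and thinning steps were tested on simulated data. All 8 genes are named whatever their values, and up to 4 genes of each wider list by the size of their log2 ratio. The genes, lists, classes and thresholds were chosen with earlier results of these data known. Promoters are from RefSeq, which had all 8 genes. Alternatives are given in the closing section.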

Additional observations from a re-analysis of the deposited data

Results flagged for a closer look

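Tnfrsf1b stood on opposite sides of 1 in the libraries when ILC1-like barcodes were compared with NK barcodes: 1.27 (0.753–2.03) in the wildtype and 0.428 (0.137–1.02) in the 3XTg-AD library, a log2 difference of 1.57. The same 4 values give the same difference of 1.57 between the library ratio in NK barcodes, 1.14 (0.910–1.44), and that in ILC1-like barcodes, 0.386 (0.113–1.06). It rests on 20 wildtype and 5 3XTg-AD UMIs, and the difference was not tested.

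Tnfrsf18 stood on opposite sides of 1 in Nr4a1-positive against Nr4a1-negative NK barcodes with thinned counts: 2.11 (0.954–4.06) on 9 UMIs in wildtype and 0.811 (0.295–1.79) on 6 UMIs in 3XTg-AD positive barcodes, a log2 difference of 1.38. The difference was not tested. With full counts the ratios were 1.40 and 0.958.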

How the results depend on the processing

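No paired analysis was possible because each genotype has 1 library and the labels carry no replicate numbers. Counts of genes past 1.5-fold rest on few UMIs and moved with the processing. Classes from clusters count the NK barcodes of cluster 8, led by Nr4a1, as ILC1, so those values mix them into the ILC1 side. In the Nr4a1 comparison that setting leaves the same barcodes out of the NK class. A gene under the UMI minimum is not assessed. A minimum of 100 UMIs, or a setting that leaves few UMIs, can thus drop a call without a change in its ratio. For 3XTg-AD against wildtype NK barcodes (0 higher, 0 lower), a cut of 2 UMIs gave 1 lower, cluster 4 alone 1 higher and cluster 5 alone 2 higher. For ILC1-like barcodes (0 higher, 1 lower), keeping other cell types gave 1 higher, thinned counts gave 2 lower, and classes from clusters, a minimum of 100 UMIs or a cut of 5 gave 0 lower. For ILC1-like against NK in the wildtype library (2 higher, 1 lower), a minimum of 100 UMIs gave 1 higher. Thinned counts gave 2 lower, and keeping doublets or other cell types, a fold of 2, leaving out ribosomal and mitochondrial genes or interferon-high barcodes, or a cut of 5 gave 0 lower. In the 3XTg-AD library (2 higher, 2 lower), a minimum of 100 UMIs or a fold of 2 gave 1 higher. Keeping doublets, a fold of 2 or leaving out ribosomal and mitochondrial genes gave 1 lower, and classes from clusters gave 0. For Nr4a1 in the wildtype library (3 higher, 1 lower), a minimum of 100 UMIs gave 1 higher, and a fold of 2, 2 Nr4a1 UMIs, full counts or both together gave 0 lower. In the 3XTg-AD library (1 higher, 0 lower), a minimum of 100 UMIs gave 0 higher, classes from clusters, thinning to 1000 or 2 Nr4a1 UMIs gave 2 higher and 1 lower, full counts gave 3 higher and another seed 4 higher. For pairs (1 and 0 at or above 1.5), thinning to 1000 or 2000 gave 0 in the wildtype and thinning to 2000 gave 1 in the 3XTg-AD library.

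Of values past 1.5-fold, 9 changed direction, all in the thinned wildtype Nr4a1 comparison: Tnfrsf9 (log2 ratio -0.91) to 0.68 with classes from clusters, 0.68 and 0.61 with thinning to 1000 and 2000, 0.99 with another seed 1.01 with full counts and 0.87 with full counts and 2 Nr4a1 UMIs, Tnfrsf18 to -0.62 with thinning to 1000 and -0.36 with full counts and 2 Nr4a1 UMIs, and Tnfrsf1b to -0.99 with thinning to 2000. The cause was not tested. Ratios short of 1.5-fold crossed 1 as well, among them wildtype Nr4a1 Fasl at 0.423 with classes from clusters, and, in cluster 4 alone, library ratios of 0.752 for Tnfrsf9, 0.708 for Tnfsf14, 0.825 for Tnfrsf1a, 1.32 for Tnfrsf18 and 1.05 for Fasl, and in cluster 5 alone 1.33 for Fasl, 0.755 for Tnfrsf1b and 0.846 for Tnfrsf1a. Tnfsf10 stayed 9.85 to 22.9 times as high in wildtype and 9.24 to 23.4 times in 3XTg-AD ILC1-like barcodes over the alternatives run, and Tnfrsf9 2.72 to 3.46 and 1.78 to 3.33 times. These ranges include classes from clusters, with cluster 8 on the ILC1 side. Tnfsf14 was 4.44 to 19.8 and 2.54 to 5.98 times as high in Nr4a1-positive barcodes, except that 3XTg-AD barcodes with 2 thinned Nr4a1 UMIs held 0 of its UMIs. At this depth Tnfrsf1b in ILC1-like barcodes, with 20 and 5 UMIs, gives an interval from 0.113 to 1.06.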
